A study of Mus musculus with 16 samples.

Results

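The genes of 10 calcium/calmodulin-dependent kinases were examined in mouse primary cortical neurons after oxygen-glucose deprivation (OGD), which withholds oxygen and glucose from cultured cells as a model of stroke. The members were taken by symbol from the deposited isoform table. They are the 4 CaMKII subunit genes *Camk2a*, *Camk2b*, *Camk2d* and *Camk2g*, the 3 CaMKI genes *Camk1*, *Camk1d* and *Camk1g*, the CaMKIV gene *Camk4*, and the kinase kinases *Camkk1* and *Camkk2*. They are 10 of 53679 symbols and 96 of 135202 isoforms in the table. Wild-type neurons from the cortex of fetal mice at E15 received vehicle (DMSO by the study's methods, "untreated" in the labels) or 10 μM tianeptine (TIA) at DIV 8. Tianeptine is an atypical antidepressant. After 24 h the neurons underwent 3-h OGD or sham at DIV 9, and RNA was taken at 6 h of reoxygenation. CONTROL-VEH (cultures 1 to 4) had vehicle and sham, CONTROL-TIA (5 to 8) TIA and sham, OGD-VEH (9 to 12) vehicle and OGD, and OGD-TIA (13 to 16) TIA and OGD. All cultures are wild type by the labels. The study calls the 4 cultures of a group biological replicates, without saying whether they came from separate dissections, so the p-values measure the spread between these cultures.

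Calcium entering a neuron binds calmodulin, and calcium-loaded calmodulin switches on this kinase family. CaMKII is a multimer whose subunits phosphorylate one another at a conserved threonine, which keeps the enzyme active after calcium has fallen. Its alpha and beta subunits are abundant at excitatory synapses, where the kinase supports long-term potentiation, and the gamma and delta subunits are made in many tissues. CaMKI and CaMKIV act alone, CaMKIV largely in the nucleus on transcription factors such as CREB, and both need phosphorylation by a kinase kinase for full activity. CaMKK2 also phosphorylates the energy sensor AMPK.

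The CaMKII genes are close paralogs, so the stretch around the autophosphorylated threonine was compared to see whether 50-base reads could separate them. It is shown for the 3 subunits below as the coding strand of GRCm38, with the threonine codon (residue 287 in each) in capitals, and lies in exon 11 of each transcript, on chr11:5988964-5989017 (minus strand) for *Camk2b*, chr3:126797723-126797776 (plus strand) for *Camk2d* and chr14:20760406-20760459 (minus strand) for *Camk2g*.
Camk2b-210: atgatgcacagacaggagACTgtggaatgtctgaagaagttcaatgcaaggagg
Camk2d-202: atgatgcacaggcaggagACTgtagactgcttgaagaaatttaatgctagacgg
Camk2g-203: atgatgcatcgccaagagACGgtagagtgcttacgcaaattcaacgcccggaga
*Camk2b* and *Camk2d* share 44 of these 54 bases, *Camk2b* and *Camk2g* share 36, and *Camk2d* and *Camk2g* share 37. The longest identical run is 11 bases. Over whole transcripts, no 50-base stretch of a member occurs in another member. In another gene, 19 of 7516 stretches of *Camk2a* and 10 of 9443 of *Camk2b* also occur, and none of the other 8 members. Reads of this length therefore separate the 10 genes from one another but not always their isoforms.

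FPKM counts fragments per kilobase of isoform, scaled to library size, which allows a rough comparison between genes. For the members that comparison depended on whether short isoforms were counted. Isoform FPKM were summed per gene. Estimated depths lay between 19.9 and 26.0 M reads per culture, where the labels state 18 to 23 M. Read numbers below rest on the estimates. Isoforms shorter than 1000 bases hold 52.1% of *Camk2a* FPKM, 39.0% of *Camk2b*, 45.5% of *Camk2d*, 78.2% of *Camk2g* and 74.5% of *Camkk2*. A short model can share most of its sequence with a long isoform, and the split of reads between them is then an estimate. For that reason the main results are also given on the sum of isoforms of at least 1000 bases, a choice made after the isoform values had been seen. On that sum the lowest value of a member in any culture corresponds to an estimated 298 reads (*Camk4*) up to 4740 reads (*Camk2b*).

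The OGD cultures differed among themselves. OGD-VEH 12 and OGD-TIA 16 had the lowest summed FPKM of 6 neuronal markers of the 16 cultures (911 and 1208) and the highest of 5 astrocyte markers (1466 and 1071). Of the OGD-VEH cultures, culture 9 stood nearest the controls, with 1741 for neuronal markers. In CONTROL-VEH the neuronal sum was 1834 to 2401 and the astrocyte sum 424 to 647. The 5 oligodendrocyte lineage markers summed to 168 to 202 in CONTROL-VEH and 228 to 628 in OGD-VEH. The neuronal markers *Tubb3* and *Map2* were at 269 FPKM or more and 486 FPKM or more in each culture, but in OGD-VEH 12 the astrocyte sum exceeded the neuronal one. The 6 microglia markers summed to at most 3.03 FPKM, in CONTROL-TIA 6, where *Aif1* was at 2.76 FPKM. The 3 endothelial markers summed to at most 1.35, with *Cldn5* at 0.039 FPKM or less in every culture.

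In CONTROL-VEH the kinases spanned a wide range of levels. *Camk2b* was highest, at 335 ± 30.1 FPKM (SD, n = 4). *Camk2g* followed at 151 ± 25.0, *Camkk2* at 125 ± 36.9 and *Camk2a* at 112 ± 10.8. *Camk2d* stood at 62.7 ± 3.97. The lower members were *Camk1g* (27.4 ± 3.27), *Camk1d* (26.4 ± 14.6), *Camk1* (24.2 ± 0.483), *Camk4* (21.4 ± 2.26) and *Camkk1* (11.3 ± 1.08). *Camkk2* overlapped both *Camk2g* and *Camk2a*, and *Camk1d* overlapped *Camk1g*, *Camk1* and *Camk4*. Counting long isoforms only, the order changed. *Camk2b* remained first (188 ± 11.2 FPKM), *Camk2a* came second (51.9 ± 2.91) and *Camk2g* dropped below *Camkk2* and *Camk2d* to 29.3 ± 0.812.

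**Figure D1:**
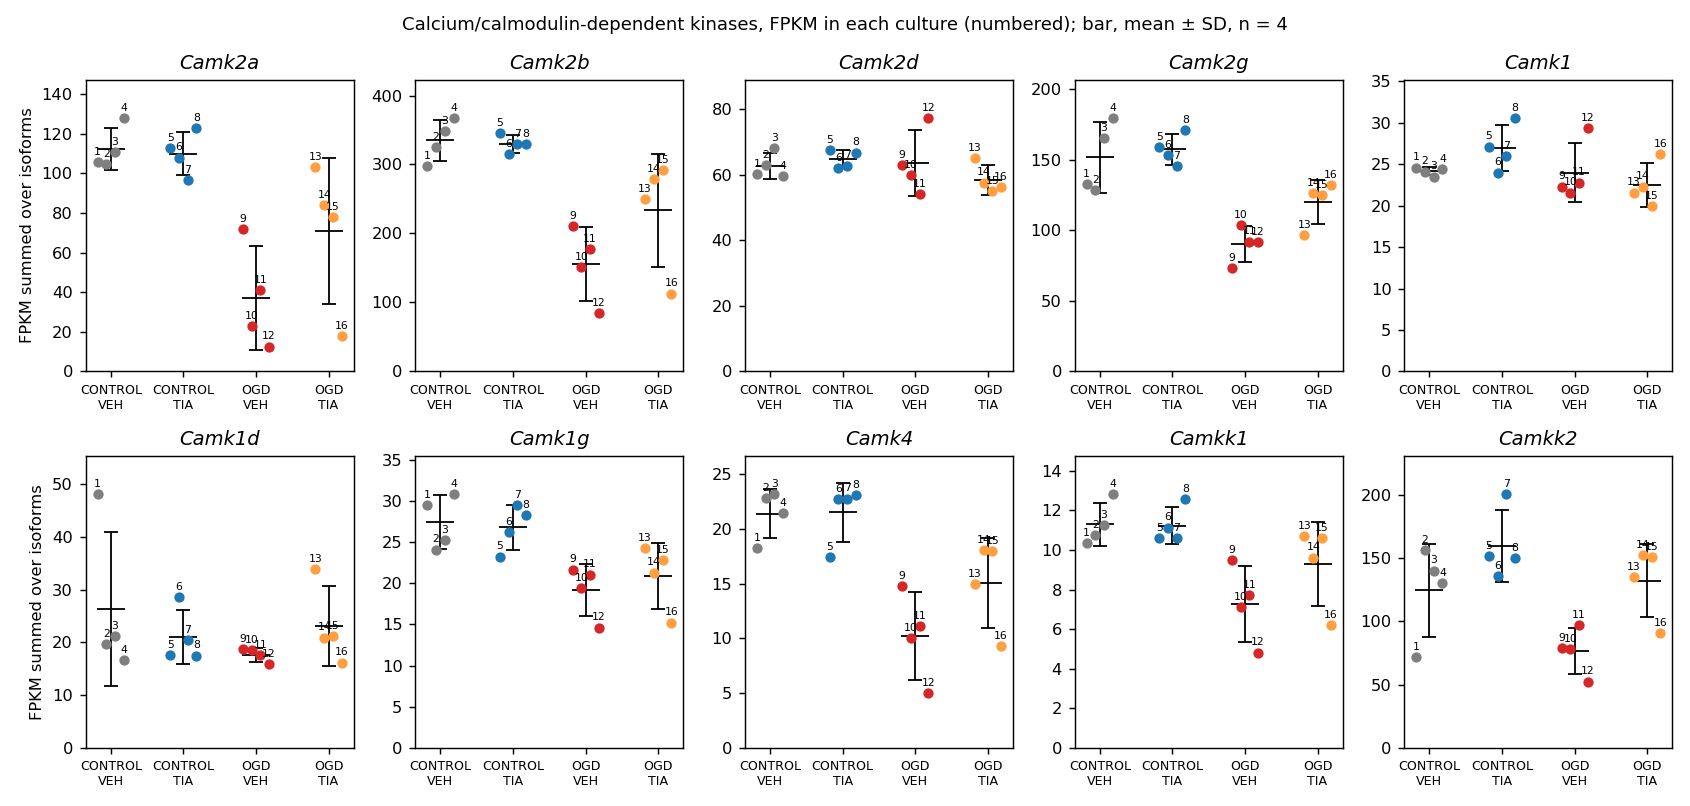
FPKM summed over isoforms (vertical axes, from 0) for each of the 10 kinase genes in the 16 cultures, which are numbered. Points are cultures and bars the mean ± SD of 4. *Camk2a*, *Camk2b* and *Camk4* in OGD-VEH lie below every CONTROL-VEH culture, and culture 12 is the lowest of its group, while *Camk2d* and *Camk1* are highest of their group in culture 12.

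The first comparison asks what OGD does without TIA. Alpha and beta CaMKII and CaMKIV mRNA were downregulated in OGD-VEH compared with CONTROL-VEH, and the log2 fold changes of *Camk2d* and *Camk1* were 0.01 and -0.02. A DEG was a gene with padj ≤ 0.05 and a log2 fold change ≥ 1 or ≤ -1 in limma, with p adjusted over 16346 genes. By this rule 3 of the 10 members were downregulated DEGs and none was upregulated, where 1.68% of all genes tested were downregulated. All values of OGD-VEH lay below all of CONTROL-VEH for 6 of the 10 (*Camk2a*, *Camk2b*, *Camk2g*, *Camk1g*, *Camk4* and *Camkk1*), against 9.95% of all genes. On isoforms of at least 1000 bases, *Camk2g* and *Camk1g* overlapped between these groups. *Camk2a*, *Camk2b*, *Camk4*, *Camkk1* and *Camkk2* did not overlap on those isoforms. Without the fold threshold, 4 members were lower at padj ≤ 0.05 (3.45% of all genes), and 7 at unadjusted p under 0.05 (14.9% of all genes). The median log2 fold change was -0.67 over the 10 members and 0.10 over all genes tested. In bulk RNA, fewer cells of a type and less RNA per cell cannot be told apart.

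*Camk2a* encodes the alpha subunit, the main CaMKII form of forebrain excitatory neurons (chr18:60925618-60988152, plus strand). Its summed level in CONTROL-VEH 1 to 4 was 106, 105, 111 and 128 FPKM. In OGD-VEH 9 to 12 it was 71.9, 22.8, 41.0 and 12.6 FPKM. The groups did not overlap, and the OGD cultures spread widely, from culture 12 to culture 9. The log2 fold change was -1.88 (SE 0.46, padj = 0.0461, limma), a fall to 0.271 of the control level on the log2 scale. The fall in long isoforms was smaller, at -1.19 (SE 0.28, padj = 0.0257, limma), with 49.2 to 56.0 FPKM in CONTROL-VEH and 12.5 to 40.4 in OGD-VEH. Without OGD-VEH 12 the log2 fold change over all isoforms was -1.46 (limma padj = 0.0676), and without OGD-VEH 9 it was -2.30 (limma padj = 0.0052).

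*Camk2b* encodes the beta subunit, which also binds actin (chr11:5969644-6066362, minus strand). It was 298, 326, 349 and 368 FPKM in CONTROL-VEH and 211, 151, 177 and 84.7 FPKM in OGD-VEH. Each OGD culture was below each control. Its log2 fold change was -1.18 (SE 0.25, padj = 0.0393, limma). Its long isoforms gave -0.82 (SE 0.24, limma padj = 0.0368), short of the fold threshold for a DEG. Without OGD-VEH 12 it was -0.91 over all isoforms (limma padj = 0.0407).

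*Camk4* has a single isoform in the table, so its value involves no sharing of reads among isoforms (chr18:32939041-33195767, plus strand). CONTROL-VEH held 18.2, 22.8, 23.2 and 21.4 FPKM and OGD-VEH 14.7, 9.99, 11.1 and 4.99 FPKM. The groups were separate, with culture 12 lowest. The log2 fold change was -1.15 (SE 0.30, padj = 0.0499, limma), close to the padj threshold, and -0.85 without OGD-VEH 12 (limma padj = 0.0577).

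*Camk2g* encodes the gamma subunit, which carries calcium/calmodulin to the nucleus in neurons (chr14:20734875-20794088, minus strand). Summed over isoforms it was 133, 128, 165 and 179.6 FPKM in CONTROL-VEH and 73.4, 104, 91.9 and 91.8 FPKM in OGD-VEH, with no overlap. The log2 fold change was -0.74 (SE 0.15, limma padj = 0.0358). Most of the difference in FPKM lay in isoforms under 1000 bases, at 122 ± 24.5 FPKM in CONTROL-VEH and 62.9 ± 14.3 in OGD-VEH (SD, n = 4). Isoforms of at least 1000 bases were 29.3 ± 0.812 and 27.3 ± 1.96 FPKM, and their log2 fold change was -0.10 with a 95% interval of -0.28 to 0.07 (limma padj = 0.316). The lower *Camk2g* level thus rested on its short isoform models.

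*Camk2d* encodes the delta subunit, known mainly from the heart (chr3:126596302-126846326, plus strand). It was 59.5 to 68.3 FPKM in CONTROL-VEH and 63.1, 59.9, 54.0 and 77.4 FPKM in OGD-VEH, in overlapping ranges. Its log2 fold change was 0.01 with a 95% interval of -0.28 to 0.30 (limma padj = 0.961). Its highest value was in culture 12, where *Camk2a* was lowest.

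**Figure D2:**
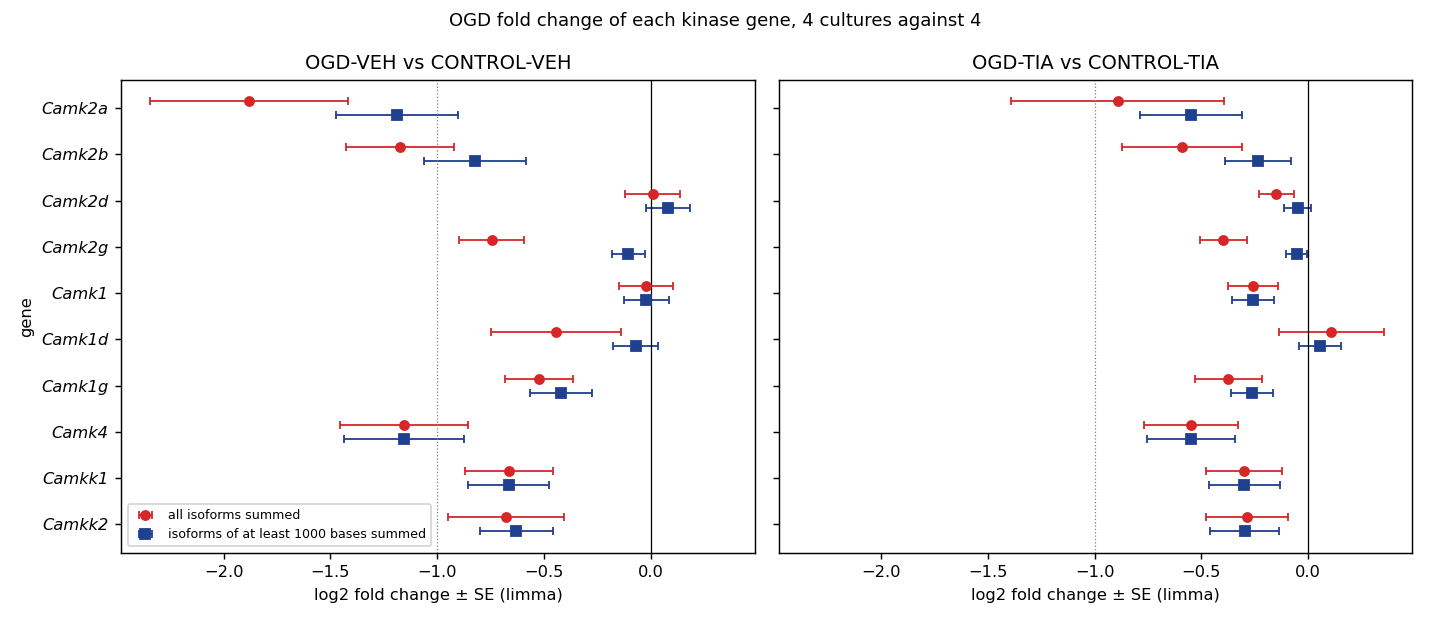
Log2 fold change ± SE (horizontal axes, limma) of the 10 kinase genes for OGD-VEH against CONTROL-VEH and OGD-TIA against CONTROL-TIA, 4 cultures each. Circles sum all isoforms, squares those of at least 1000 bases, and the dotted line marks -1. *Camk2g* moves from -0.74 to -0.10 between the sums in the first comparison, while *Camk4*, whose single isoform is in both sums, stays at -1.15.

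Among the CaMKI genes no member was a DEG. *Camk1g*, a form anchored to membranes, was 24.1 to 30.9 FPKM in CONTROL-VEH and 21.7, 19.4, 21.1 and 14.6 FPKM in OGD-VEH. Its log2 fold change was -0.52 (SE 0.16, limma padj = 0.0654). The long isoforms of *Camk1g* gave -0.42 (limma padj = 0.0578), in overlapping ranges. *Camk1* was 23.5 to 24.6 FPKM in CONTROL-VEH and 22.3, 21.6, 22.8 and 29.3 FPKM in OGD-VEH. For it the log2 fold change was -0.02, with a 95% interval of -0.31 to 0.27. *Camk1d* was 48.2 FPKM in CONTROL-VEH 1 and 16.7 to 21.1 in the other controls. The excess of culture 1 was the 376-base Camk1d-203, at 31.1 FPKM there and listed at 0 in 13 of 16 cultures, and on long isoforms the *Camk1d* log2 fold change was -0.07 (95% interval -0.31 to 0.17).

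Neither kinase kinase passed the threshold on all isoforms. *Camkk1* was 10.3, 10.8, 11.3 and 12.8 FPKM in CONTROL-VEH and 9.47, 7.10, 7.72 and 4.81 FPKM in OGD-VEH, in separate ranges. This was a log2 fold change of -0.66 (SE 0.21, limma padj = 0.0669). *Camkk2* was 71.8, 157, 140.1 and 130.1 FPKM in CONTROL-VEH and 78.8, 78.2, 96.9 and 52.3 FPKM in OGD-VEH, with CONTROL-VEH 1 inside the OGD range. Its log2 fold change was -0.68 (SE 0.27, limma padj = 0.117). On the sum of long isoforms both passed padj ≤ 0.05, *Camkk1* at -0.66 (limma padj = 0.0348) and *Camkk2* at -0.63 (limma padj = 0.0313). On that sum 5 of the 10 members passed padj ≤ 0.05 with a lower level, where 11% of 13595 genes did, and 2 were DEGs (*Camk2a* and *Camk4*), where 2.85% of genes were downregulated DEGs. *Camkk1* and *Camk4* have no isoform under 1000 bases, so their values are the same on both sums. Their padj differs because another set of genes was fitted and adjusted.

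The 3 DEG calls were fragile to single cultures. Leaving out any one of CONTROL-VEH 1, 2, 3 or 4 or OGD-VEH 10, 11 or 12 brought the number of member DEGs from 3 to 0, and the number of DEGs among all genes from 668 to between 1 and 71. Leaving out OGD-VEH 9 kept all 3 and gave 2186 DEGs among all genes. The direction of *Camk2a*, *Camk2b* and *Camk4* was the same in all 8 of these fits, at -2.30 to -1.46, -1.35 to -0.91 and -1.36 to -0.85 on the log2 scale.

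The isoforms of *Camk2a* were also tested singly. The full-length Camk2a-203 (ENSMUST00000102888, 4970 bases) was 47.4, 47.7, 48.1 and 53.7 FPKM in CONTROL-VEH and 40.4, 21.3, 23.5 and 12.3 FPKM in OGD-VEH. Its lowest value corresponds to an estimated 1358 reads. The short Camk2a-207 (ENSMUST00000137805, 530 bases) held 51.5% of the gene's FPKM, and 78 of its 481 stretches of 50 bases occur in no other isoform. It was 53.3 to 71.1 FPKM in CONTROL-VEH and 29.8, 0, 15.7 and 0 in OGD-VEH. As an estimated split between overlapping models, a value listed at 0 here gives no fold change. Camk2a-201 (ENSMUST00000025519, 3244 bases, 1.3% of FPKM) was 1.29 to 2.66 FPKM in CONTROL-VEH and 0 to 0.552 in OGD-VEH. Only 7 of its 3195 stretches of 50 bases occur in no other isoform, so its values are an estimated split too. In OGD-VEH against CONTROL-VEH these 3 isoforms did not overlap between groups, against 5.83% of 53087 isoforms with a lower level. None was a DEG when p was adjusted over all isoforms, of which 0.0697% were downregulated DEGs. For Camk2a-203 the log2 fold change was -1.13 (SE 0.32, limma padj = 0.15). None is given for Camk2a-201, which is listed at 0 in OGD-VEH 9. Camk2a-204, the other isoform that passed the filter on low values, was at most 1.73 FPKM in any culture. The remaining 3 isoforms of the gene did not pass it.

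**Figure D3:**
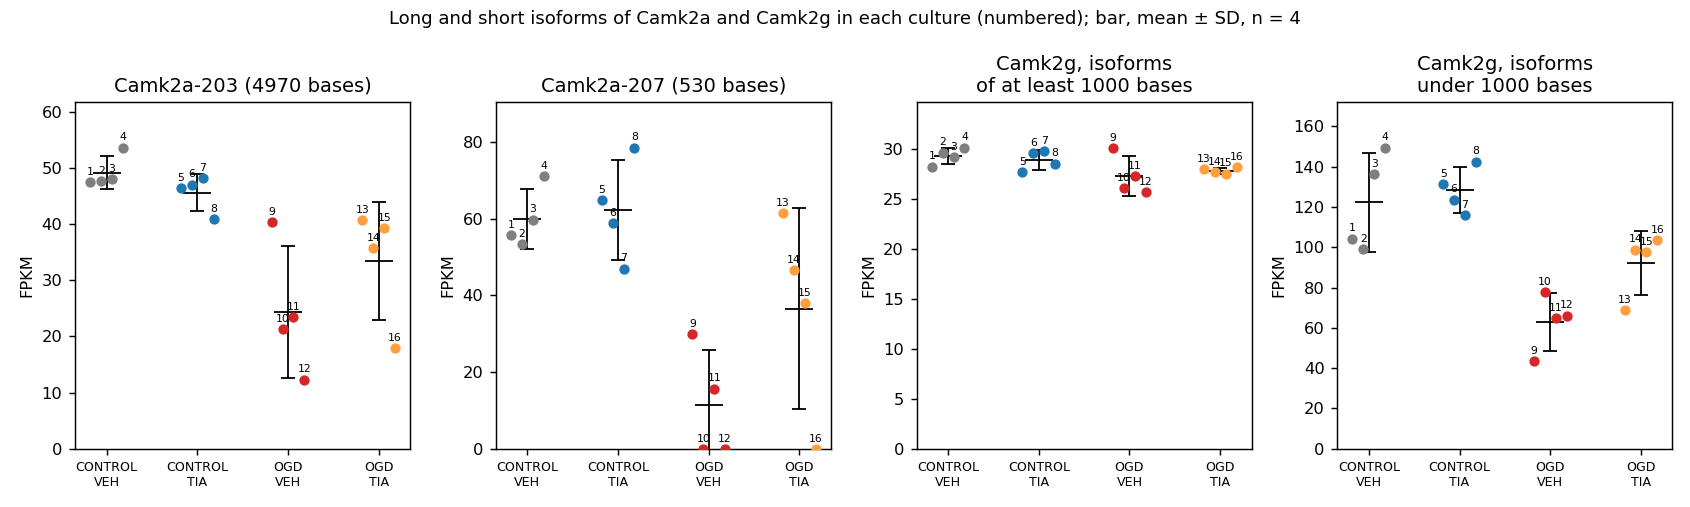
Levels in FPKM (vertical axes, from 0) of Camk2a-203, of Camk2a-207 and of the *Camk2g* isoforms summed by length, in the 16 numbered cultures, with the mean ± SD of 4. Camk2a-207 is at or near 0 in cultures 10, 12 and 16, and the long *Camk2g* isoforms keep to 25.7 to 30.1 FPKM in all cultures.

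Because CaMKII subunits assemble with one another, the share of each gene in the summed CaMKII FPKM was described. The 4 genes together gave 662 ± 63.9 FPKM in CONTROL-VEH and 347 ± 63.4 in OGD-VEH (SD, n = 4). Isoforms of at least 1000 bases gave 303 ± 13.9 and 200 ± 48.7 FPKM. Over all isoforms the shares were as follows. *Camk2a* held 17.0 ± 0.764% in CONTROL-VEH and 9.97 ± 5.52% in OGD-VEH, and *Camk2d* 9.54 ± 0.966% and 19.2 ± 6.71%. Over isoforms of at least 1000 bases the *Camk2a* share was 17.0 to 17.4% in CONTROL-VEH and 15.5, 11.1, 11.8 and 8.89% in OGD-VEH 9 to 12. The ratio of *Camk2a* to *Camk2d* on those isoforms was 1.43 to 1.78 in CONTROL-VEH and 1.25, 0.664, 0.652 and 0.298 in OGD-VEH. So *Camk2a* was the more abundant of this pair in each control culture and the less abundant in 3 of the 4 OGD-VEH cultures.

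**Figure D4:**
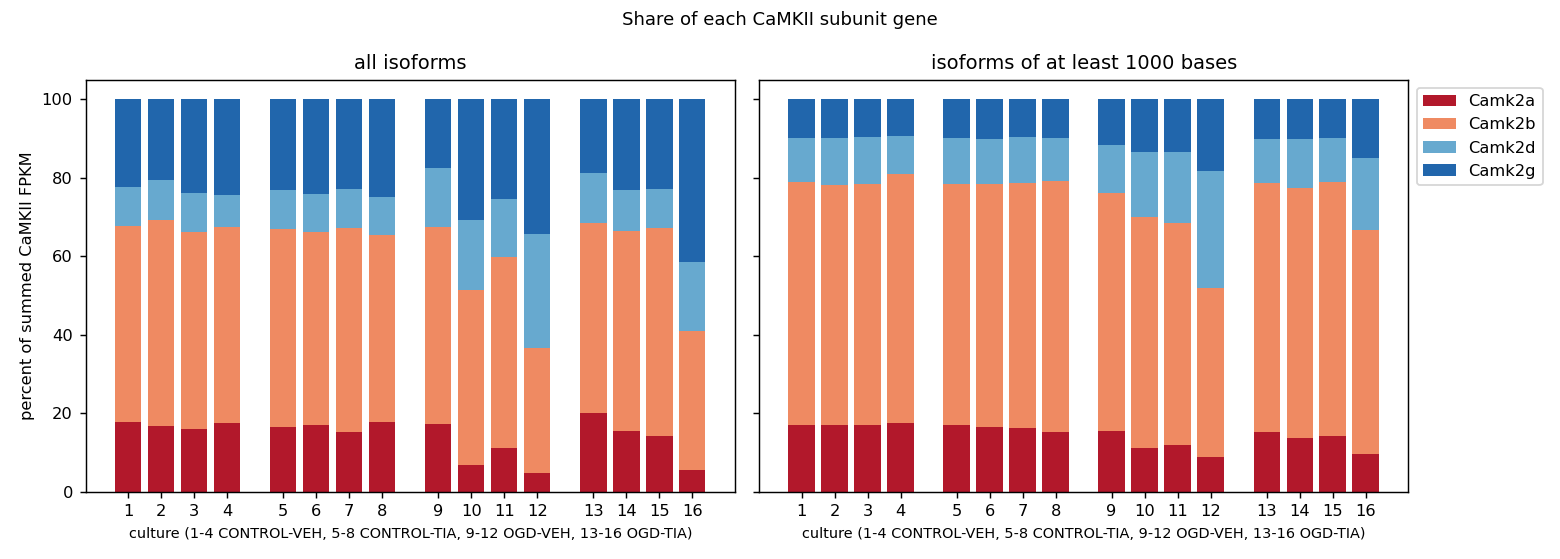
Share of each CaMKII subunit gene in the summed CaMKII FPKM (vertical axis, percent) in the 16 cultures, for all isoforms and for isoforms of at least 1000 bases. The *Camk2a* share is lowest in cultures 10, 12 and 16, and in culture 12 *Camk2d* reaches 29.1% of the sum.

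The second comparison asks what OGD does after TIA pretreatment. The OGD-TIA means of *Camk2a*, *Camk2b* and *Camk4* lay between those of the controls and OGD-VEH, and for each of the 3 genes culture 16 was the lowest. None of the 10 members was a DEG in OGD-TIA compared with CONTROL-TIA, and limma called none of 16242 genes (0%). The study did report DEGs in this comparison, by DESeq2 at the same thresholds, a test not run here. At unadjusted p under 0.05, 19.5% of genes differed. At that level 3 members were lower (*Camk2g*, *Camk1g* and *Camk4*), where 7.92% of genes were. On long isoforms no member was a DEG, where 0.288% of genes were downregulated DEGs. Summed over all isoforms, *Camk2b* and *Camk2g* did not overlap between groups, against 6.72% of genes with a lower level. On long isoforms both of these genes overlapped, and *Camk2a* did not. The median log2 fold change was -0.34 over the members and 0.04 over all genes.

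*Camk2a* was 113, 108, 96.8 and 123 FPKM in CONTROL-TIA 5 to 8 and 103, 84.0, 77.9 and 18.0 FPKM in OGD-TIA 13 to 16. Culture 13 was within the control range. The log2 fold change was -0.89 (SE 0.50, limma padj = 0.352) and -0.32 without OGD-TIA 16 (limma padj = 0.218). Its long isoforms gave -0.55 (limma padj = 0.171), with 44.2 to 49.7 FPKM in CONTROL-TIA and 17.9 to 41.9 in OGD-TIA, in separate ranges. *Camk2b* was 315 to 346 FPKM in CONTROL-TIA and 249.9, 279, 292 and 113 FPKM in OGD-TIA, with a log2 fold change of -0.59 (SE 0.28, limma padj = 0.284). It was -0.27 without OGD-TIA 16 (limma padj = 0.117). The long isoforms of *Camk2b* gave -0.24 (limma padj = 0.337), in overlapping ranges. *Camk4* was 17.4 to 23.1 FPKM in CONTROL-TIA and 15.0, 18.1, 18.0 and 9.27 FPKM in OGD-TIA, with a log2 fold change of -0.55 (SE 0.22, limma padj = 0.230), and -0.33 without OGD-TIA 16.

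*Camk2g* was 146 to 171 FPKM in CONTROL-TIA and 96.6, 126, 125 and 132 FPKM in OGD-TIA. Its log2 fold change was -0.40 (SE 0.11, limma padj = 0.147), and -0.05 over isoforms of at least 1000 bases (95% interval -0.17 to 0.06). *Camk1g* was 23.3 to 29.5 FPKM in CONTROL-TIA and 24.3, 21.3, 22.8 and 15.2 FPKM in OGD-TIA. *Camkk1* and *Camkk2* had log2 fold changes of -0.30 (limma padj = 0.383) and -0.29 (limma padj = 0.425), and of -0.12 and -0.11 without OGD-TIA 16. *Camk2d*, *Camk1* and *Camk1d* had log2 fold changes of -0.15, -0.26 and 0.11, none with a limma padj at or under 0.05.

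TIA alone was compared in sham cultures. CONTROL-TIA and CONTROL-VEH overlapped for each of the 10 members, where 1.09% of genes were separate with a lower level and 0.965% with a higher one. None was a DEG by limma, which called none of 16170 genes (0%), and none of the 10 had an unadjusted p under 0.05, where 3.84% of genes did. The log2 fold change was -0.03 for *Camk2a* (95% interval -0.26 to 0.20), -0.02 for *Camk2b* (-0.19 to 0.15) and 0.0032 for *Camk4* (-0.28 to 0.29). The interval was widest for *Camk1d*, at -0.98 to 0.53. For its long isoforms it was -0.19 to 0.21.

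OGD-TIA was then set against OGD-VEH, which shares its cultures with the comparisons above. *Camk2a* was 37.1 ± 26.0 FPKM in OGD-VEH and 70.8 ± 36.8 in OGD-TIA (SD, n = 4), *Camk2b* 156 ± 53.3 and 233 ± 82.4, and *Camk4* 10.2 ± 4.03 and 15.1 ± 4.12. Their log2 fold changes were 0.96 (95% interval -0.60 to 2.51), 0.57 (-0.29 to 1.42) and 0.61 (-0.20 to 1.41). The intervals include both 0 and a return to the control level. Single cultures moved these values. Without OGD-VEH 12 they were 0.54, 0.30 and 0.30, and without OGD-TIA 16 they were 1.53, 0.89 and 0.83, none of them a DEG. The long isoforms of *Camk2a* gave 0.52 (95% interval -0.35 to 1.38) and those of *Camk2b* 0.55 (-0.11 to 1.21). No member was a DEG by limma, nor was any of 16351 genes (0%). With array quality weights no member and 408 of all genes were DEGs. The groups overlapped for each member, where 2.52% of genes were separate with a lower level and 1.3% with a higher one. At unadjusted p under 0.05, 7.91% of genes differed, and 2 members were higher, where 2.87% of genes were. They were *Camkk2*, at 76.5 ± 18.3 FPKM in OGD-VEH and 132 ± 28.9 in OGD-TIA (log2 fold change 0.79, limma padj = 0.551), and *Camk2g*, at 90.2 ± 12.5 and 120.0 ± 15.8 (0.41, limma padj = 0.551). On long isoforms these were 0.33 (95% interval -0.20 to 0.86) and 0.03 (-0.13 to 0.19).

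The difference between the OGD effect with TIA and that without it was tested directly as an interaction over the 16 cultures. It was 0.99 for *Camk2a* (SE 0.73, 95% interval -0.57 to 2.55, limma padj = 0.724), 0.59 for *Camk2b* (-0.28 to 1.45, limma padj = 0.722) and 0.61 for *Camk4* (-0.23 to 1.44, limma padj = 0.722). Without OGD-VEH 12 these were 0.57, 0.32 and 0.30, and without OGD-TIA 16 they were 1.56, 0.90 and 0.82. The long isoforms of *Camk2a* gave 0.64 (95% interval -0.22 to 1.50). No member and none of 16313 genes passed in limma (0%), and no member had an unadjusted p under 0.05, where 6.06% of genes did. With array quality weights no member and 101 of all genes passed. A weaker OGD effect after TIA was therefore not shown for any of the 10 kinases.

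With all 16 cultures, OGD was compared with CONTROL over both pretreatments. Here 7 of the 10 members were lower at padj ≤ 0.05, where 13.4% of genes were, and 1 was a DEG, where 1.99% of genes were downregulated DEGs. *Camk2a* was the DEG (-1.39, SE 0.37, limma padj = 0.0136), and it remained one in each of the 16 fits that left out a culture. *Camk2b* alone did not overlap between the 8 OGD and 8 CONTROL cultures, where 2.42% of genes were separate with a lower level. On long isoforms the ranges of *Camk2b* overlapped and those of *Camk2a* did not. The other members lower at padj ≤ 0.05 were *Camk2b* (-0.88, limma padj = 0.00742), *Camk4* (-0.85, limma padj = 0.00790), *Camk2g* (-0.57, limma padj = 0.00232), *Camkk2* (-0.48, limma padj = 0.0493), *Camkk1* (-0.48, limma padj = 0.0199) and *Camk1g* (-0.45, limma padj = 0.00900). *Camkk2* lost its side of the threshold without OGD-VEH 9 (limma padj = 0.061), OGD-VEH 12 (0.0954) or OGD-TIA 16 (0.0986). On long isoforms no member was a DEG, where 1.14% of genes were downregulated DEGs. *Camk2a* was -0.87 there (limma padj = 0.0048), short of the fold threshold, *Camkk2* -0.46 (limma padj = 0.0094) and *Camk2g* -0.08 (limma padj = 0.108).

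The members fell into groups by how they varied over cultures. As a description over 16 cultures that share the OGD contrast, the log2 level of *Camk2a* correlated with *Camkk1* (Pearson r = 0.977), *Camk2b* (0.974), *Camk4* (0.940) and *Camk1g* (0.903). The value was 0.724 for *Camkk2*, 0.530 for *Camk2g*, 0.412 for *Camk1d*, -0.042 for *Camk2d* and -0.121 for *Camk1*. After the group means were removed it was 0.949 for *Camkk1*, 0.944 for *Camk2b*, 0.859 for *Camk4* and 0.827 for *Camk1g*. It was then 0.55 for *Camkk2*, 0.299 for *Camk1d*, -0.203 for *Camk2d*, -0.414 for *Camk2g* and -0.641 for *Camk1*. Among 16313 genes, those with the pattern most like *Camk2a* included *Tmem151b* (r = 0.982), *Syp* (the synaptic vesicle protein synaptophysin, 0.981), *Pacsin1* (an endocytosis adaptor of neurons, 0.981) and *Myt1l* (a neuronal transcription factor, 0.980).

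Markers of neurons and of excitatory neurons were mostly lower in OGD-VEH, and those of inhibitory neurons were mixed. In OGD-VEH against CONTROL-VEH, 4 of 6 neuronal markers and 5 of 5 excitatory neuron markers were lower at unadjusted p under 0.05, and none was a DEG. Of all genes, 14.9% were lower and 20.2% higher at that level, and 1.68% were downregulated and 2.4% upregulated DEGs. The excitatory sum was 268 to 309 FPKM in CONTROL-VEH and 250.5, 159, 169.7 and 68.1 in OGD-VEH. *Slc17a7*, the vesicular glutamate transporter of cortical excitatory neurons, had a log2 fold change of -1.57 (SE 0.43, limma padj = 0.0530), *Tubb3* -1.05 (SE 0.29, limma padj = 0.0535) and *Map2* -0.19 (SE 0.10, limma padj = 0.223). In OGD-TIA the excitatory sum was 272, 283, 295 and 165 FPKM. The 5 inhibitory neuron markers summed to 202 to 435 FPKM in CONTROL-VEH and 259 to 402 in OGD-VEH. Of these, 1 was lower and 2 were higher at unadjusted p under 0.05 in OGD-VEH, and none was a DEG. Of 5 astrocyte markers 1 was higher at that level and none a DEG, and of 5 oligodendrocyte lineage markers 2 were upregulated DEGs (*Olig1* and *Olig2*), while *Mbp*, a myelin gene, was lower at padj ≤ 0.05. The 2 markers of dividing cells, both higher at unadjusted p under 0.05, were 17.6 to 41.0 in CONTROL-VEH and 28.4 to 77.4 in OGD-VEH, and the 3 fibroblast and pericyte markers 11.3 to 16.9 and 6.45 to 10.8. The part of cell composition in the kinase values was not tested.

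The other genes of the pathway were counted as a list of 39, all of which passed the filter on low values. In OGD-VEH against CONTROL-VEH, 4 were downregulated DEGs and 1 was an upregulated DEG, where 1.68% and 2.4% of genes were. The 4 downregulated calls also depended on single cultures, as 0 of all genes were downregulated DEGs without CONTROL-VEH 2 or CONTROL-VEH 3. The median log2 fold change of the list was -0.58, against 0.10 over all genes. At padj ≤ 0.05 without the fold threshold, 12 of 39 were lower and 2 higher, where 3.45% and 4.99% of genes were. In OGD-TIA against CONTROL-TIA none of the 39 was a DEG by limma, where 0% of genes were, and 12 were lower and 1 higher at unadjusted p under 0.05, where 7.92% and 11.6% of genes were.

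*Calm2* and *Calm3*, which encode calmodulin itself, were lower at padj ≤ 0.05 in OGD-VEH. The log2 fold changes were -0.75 and -0.73, with limma padj of 0.0391 and 0.0416. *Calm2* was 1211 to 1266 FPKM in CONTROL-VEH and 942, 791, 782 and 520.3 FPKM in OGD-VEH. *Nrgn*, which holds calmodulin at the synapse, was also lower (-0.90, limma padj = 0.0281). Of the endogenous CaMKII inhibitors, *Camk2n1* was lower (-0.86, SE 0.19, limma padj = 0.0400) and *Camk2n2* had a log2 fold change of -0.30 (95% interval -0.69 to 0.09, limma padj = 0.239). *Camkv*, a kinase-like protein without catalytic activity, was 278 to 316 FPKM in CONTROL-VEH and 234, 128, 119.7 and 36.9 FPKM in OGD-VEH, with a log2 fold change of -1.50 (SE 0.47, limma padj = 0.0692). *Pnck*, of the CaMKI family, was at -0.78 (SE 0.29, limma padj = 0.0997).

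Among synaptic partners of CaMKII, *Grin1*, *Grin2b* and *Gria1* were downregulated DEGs. *Grin1* and *Grin2b* encode NMDA receptor subunits, the second of which binds CaMKII, and *Gria1* an AMPA receptor subunit that CaMKII phosphorylates. *Grin1* was 193 to 207 FPKM in CONTROL-VEH and 128, 85.5, 72.9 and 30.3 FPKM in OGD-VEH, a log2 fold change of -1.51 (SE 0.37, limma padj = 0.0467). *Grin2b* was at -1.04 (SE 0.24, limma padj = 0.0437) and *Gria1* at -1.39 (SE 0.30, limma padj = 0.0401). Of the targets downstream, *Mef2c*, an activity-dependent transcription factor, was 440 to 509.7 FPKM in CONTROL-VEH and 202, 144, 183 and 50.2 FPKM in OGD-VEH (-1.90, SE 0.39, limma padj = 0.0367). *Crem*, a CREB family gene that also encodes repressor forms, was the upregulated DEG, at 4.81 to 10.4 FPKM in CONTROL-VEH and 14.6 to 20.02 in OGD-VEH (1.19, SE 0.24, limma padj = 0.0360). Its long isoforms were 3.29 to 5.10 FPKM and 4.18 to 8.16, in overlapping ranges. In OGD-TIA against CONTROL-TIA *Crem* was at -0.02 (95% interval -0.66 to 0.61), with 9.57 to 16.9 FPKM in CONTROL-TIA and 7.90 to 17.5 in OGD-TIA. *Creb1*, *Hdac4* and *Hdac5*, also targets of these kinases, had log2 fold changes of 0.17, 0.15 and -0.05 in OGD-VEH, none with a limma padj at or under 0.05.

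**Figure D5:**
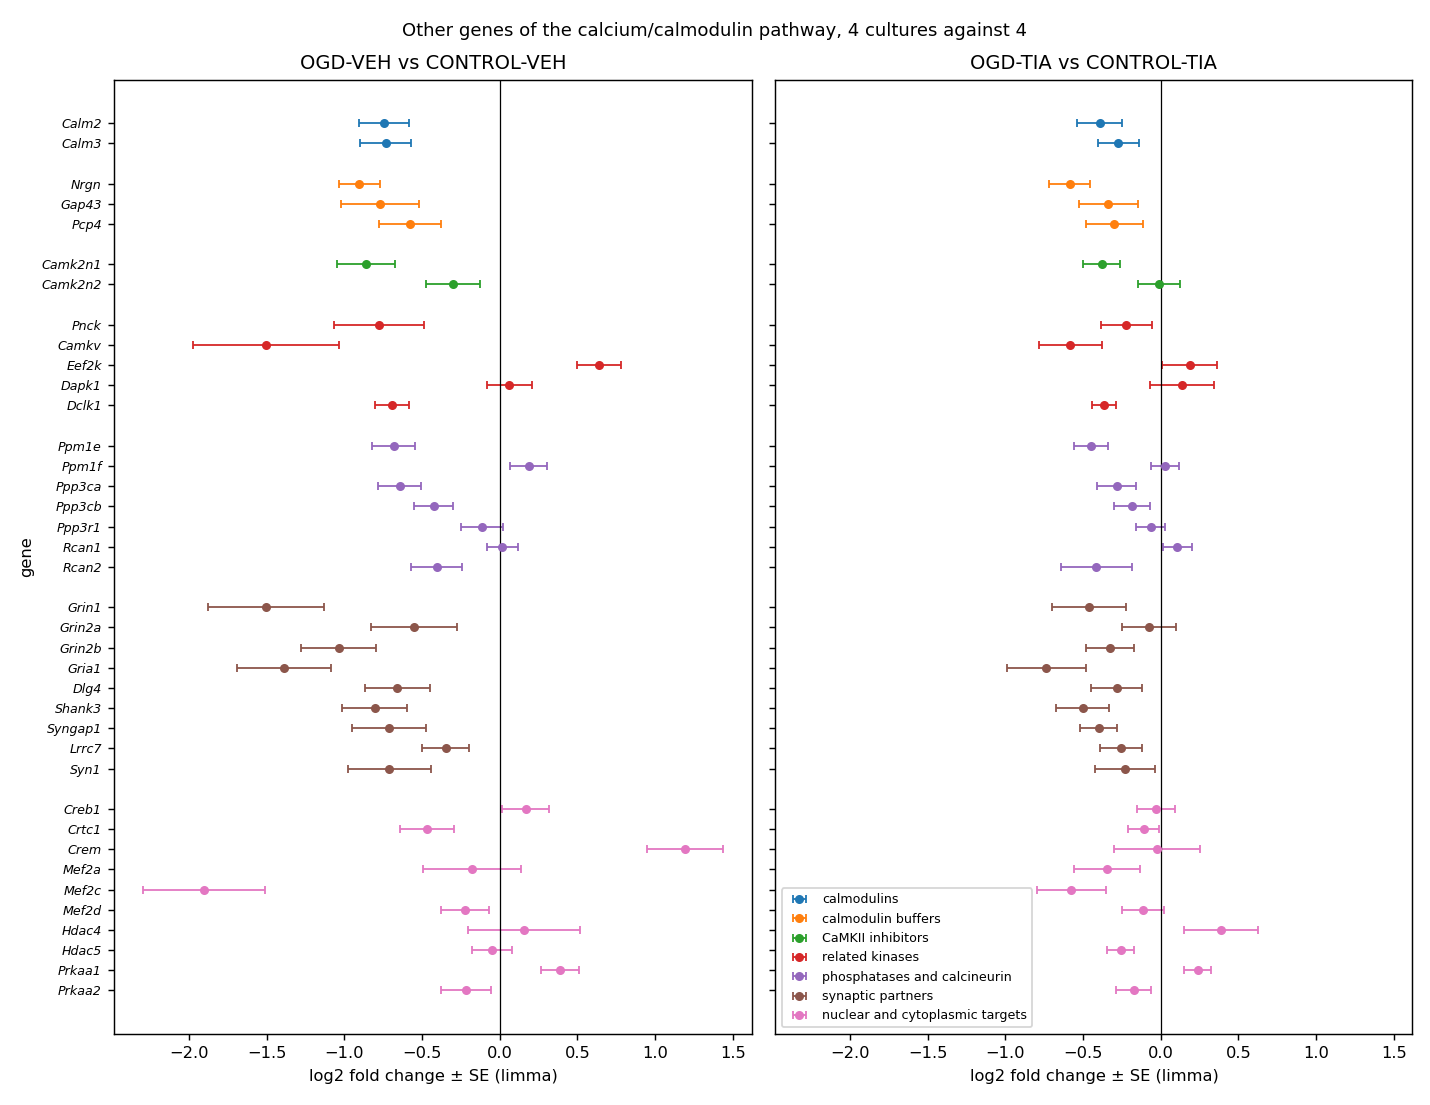
Log2 fold change ± SE (horizontal axes, limma) of the other pathway genes reported here, coloured by role, for OGD-VEH against CONTROL-VEH and OGD-TIA against CONTROL-TIA, 4 cultures each. *Mef2c* (-1.90), *Grin1* and *Camkv* lie lowest in the first comparison and *Crem* (1.19) highest, and the median of the whole list of 39 is -0.58 in the first and -0.27 in the second.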

How the data were processed

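RNA of 16 cultures was sequenced with 50-base single-end reads from stranded mRNA libraries. The authors' service provider mapped reads with STAR to GRCm38 with the Ensembl 92 annotation and estimated isoform expression with eXpress. The deposited values are FPKM per isoform, taken as TMM-scaled from the table's name; how strand was used is not given in the sources used here. The authors' differential test, DESeq2, needs counts and was not run. Of 135276 lines, 74 carried no identifier and were left out. Lengths came from GENCODE M21, in which 99.82% of isoforms were found, and the value of a single read, in low genes among 17546 with one isoform each, gave an estimate of depth. It is an estimate, so no counting intervals were computed.

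Isoform FPKM were summed per symbol and tested as log2(FPKM + 0.1) with limma 3.58.1 in R 4.3.3 (empirical Bayes with a trend) where the mean over the cultures fitted reached 0.5 FPKM, with Benjamini-Hochberg adjustment over all of them. Fold changes on this scale understate those of low genes. Pairwise comparisons used their 8 cultures, the pooled OGD comparison and the interaction all 16. The test was checked on simulated data with known changes and the spread of the CONTROL cultures. That check does not cover the wider spread among the OGD cultures. Other steps used Python 3.11.15, numpy 2.4.6, pandas 2.3.3 and matplotlib 3.10.9.

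The members, gene lists and tests were chosen with earlier results of these data known. Named genes are the 10 members, the other pathway genes that were DEGs in OGD-VEH against CONTROL-VEH (at most 12, by p), *Calm2*, *Calm3*, *Camk2n1*, *Camk2n2*, *Pnck* and *Camkv* in any case, and the 5 genes most correlated with *Camk2a*. Some genes that this rule names are not reported here. *Nrgn*, *Creb1*, *Hdac4*, *Hdac5* and the markers named singly were chosen after their values were seen. Alternatives were other pseudocounts, filters, scaling and weights, length weighting, a joint fit, long isoforms only (added after seeing the data) and leaving out each culture.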

Additional observations from a re-analysis of the deposited data

Results flagged for a closer look

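In groups of 4 cultures, a value was marked where its gap to the nearest other took up more of the group's range than Dixon's 95% critical value, which chance alone gives in about 1 of 20 groups. Of 112 groups examined, 10 held such a value. OGD-VEH 12 had *Camk1* at 29.3 FPKM, with 21.6 to 22.8 in the other 3 cultures; the value is the same over isoforms of at least 1000 bases. CONTROL-VEH 1 had *Camk1d* at 48.2 FPKM, with 16.7 to 21.1 in the other 3. CONTROL-TIA 5 had *Camk4* at 17.4 FPKM, with 22.7 to 23.1 in the other 3, on both sums. OGD-TIA 16 had 107 FPKM of *Camk2b* in isoforms of at least 1000 bases, with 174 to 181 in the other 3. On those isoforms its *Camk2b* share of CaMKII was 57.1%, with 63.5 to 64.6% in the others, and its *Camk2g* share was 15.0%, with 9.81 to 10.2% in the others. In CONTROL-VEH the *Camk2b* share over all isoforms was 52.4% in culture 2 and 49.9 to 50.3% in the others, and the *Camk2d* share was 8.10% in culture 4 and 9.85 to 10.1% in the others.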

How the results depend on the processing

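No paired analysis was possible because the cultures are numbered 1 to 16 and no number is shared between groups. Without a filter on low values, member DEGs went from 3 to 0 in OGD-VEH against CONTROL-VEH and from 1 to 0 over both pretreatments, where length weighting and long isoforms only also gave 0. Leaving out single cultures gave 0 to 3 in the former, and 0 to 2 *Camk2a* isoforms. *Camk4* was no DEG with a pseudocount of 0.01 or median-ratio scaling, and *Camk2b* none with length weighting or long isoforms only. DEGs among all genes in OGD-VEH against CONTROL-VEH numbered 668, and 6 without a filter, 1929 with array weights, 1390 in one fit of 16 cultures and 1024 with length weighting. Median-ratio scaling moved the split from 275 lower and 393 higher to 319 and 332, and the median of all genes from 0.10 to 0.02. In OGD-TIA against CONTROL-TIA 0 became 80 with weights, 53 with length weighting, 66 with long isoforms only, 3 without a filter and 1 in one fit of 16 cultures, between the OGD groups 0 became 408 with weights and 1 without a filter, in the interaction 101 and 3, for TIA alone 0 and 1, and over both pretreatments 780 became 394 with a pseudocount of 1 and 391 with long isoforms only. The cause was not tested. Directions turned for log2 fold changes near 0. *Camk2d* in OGD-VEH was -0.075 with median-ratio scaling and -0.12 with weights, and over both pretreatments 0.012 with length weighting and 0.016 with long isoforms. In CONTROL-TIA against CONTROL-VEH, *Camkk1* was 0.000501 with median-ratio scaling, 0.032 with weights and 0.065 with length weighting, *Camk2b* 0.0045 with weights, and *Camk1g* 0.023 with weights, 0.017 with length weighting and 0.025 with long isoforms, where *Camk2d* was -0.0061, *Camk2g* -0.020, *Camk1d* 0.012 and *Camkk2* -0.00099. Leaving out single cultures gave *Camk2d* -0.088 to 0.084 and *Camk1* -0.12 to 0.026 in OGD-VEH, and *Camk1d* -0.094 to 0.27 in OGD-TIA. For TIA alone it gave *Camk2a* -0.085 to 0.034, *Camk2b* -0.074 to 0.027, *Camk2g* -0.0093 to 0.15, *Camk1d* -0.40 to 0.11, *Camk1g* -0.090 to 0.036, *Camk4* -0.072 to 0.10 and *Camkk1* -0.063 to 0.053. Between the OGD groups it gave *Camk1* -0.16 to 0.013 and *Camk1g* -0.0077 to 0.26, and over both pretreatments *Camk1d* -0.28 to 0.0077. Depth is an estimate, so counting error was not computed.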
